A study of Rattus norvegicus with 12 samples.

Results

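Lungs of 3 rats that underwent brain death and then received the agonist SEW-2871 (BD/SEW) were set against lungs of 3 rats that received SEW-2871 without brain death (SEW). These are 6 of the 12 arrays of the study, and on them 20826 of 31042 probe sets carry a single gene symbol. Keeping the probe set with the highest mean for each gene left 14217 genes. All animals were male Sprague Dawley rats of wild-type genotype weighing 250 to 350 g, and RNA of whole lung tissue was hybridised to Affymetrix expression arrays. In the BD/SEW group, a balloon catheter was placed outside the dura and inflated to bring about brain death, and SEW-2871 was given into a vein at 0.1 mg/kg after 15 min. The SEW group had the same dose by the same route. The labels do not say whether these rats also had an operation, which solvent carried the agonist or when the lungs were taken, and they give no ages. The other 6 arrays are of BD lungs (brain death, no agonist, n = 3) and sham lungs (neither, n = 3), which entered the estimate of the spread and are given beside the main values where they bear on them. The comparison asks what brain death changes in the lung when every animal carries the agonist.

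Brain death is followed by a surge of catecholamines and by inflammation in distant organs, and the lung of a brain-dead donor can be injured before it is transplanted. The endothelium takes part in this inflammation through NF-kappa-B, a family of transcription factors that drives genes of adhesion molecules, chemokines and cytokines, while interferons act through STAT and IRF factors on a separate group of antiviral genes. SEW-2871 activates the sphingosine 1-phosphate receptor S1P1 (gene S1pr1). This Gi-coupled receptor sits on endothelium and lymphocytes, and signalling through it is known to tighten endothelial junctions and to guide lymphocytes out of lymph nodes. Sheared, resting endothelium is marked by the transcription factors KLF2 and KLF4 and by Notch signalling.

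Values are log2 array values as deposited, so that 1 unit is a doubling, and a difference is BD/SEW minus SEW ± SE from a limma fit with n = 3 per group. A gene is said to have risen or fallen when its Benjamini-Hochberg adjusted p, over all 14217 genes, was under 0.05. Array medians lay between 7.35 and 7.39 in the BD/SEW lungs and between 7.36 and 7.41 in the SEW lungs. Markers of lung tissue were high in both groups: the mean of 5 alveolar type 2 genes, Sftpc among them, was 13.28 to 13.34 in the BD/SEW lungs and 13.26 to 13.59 in the SEW lungs. The mean of 4 endothelial genes, Pecam1 among them, was 11.83 to 11.92 in the BD/SEW lungs and 11.89 to 12.11 in the SEW lungs. Heart muscle transcripts were present on single arrays of both groups. The mean of the 7 heart markers was 5.77, 6.56 and 8.61 in the BD/SEW lungs, against 5.69, 6.67 and 7.84 in the SEW lungs, while it was 11.79 in BD replicate 2 and 9.78 to 10.90 in the sham lungs. SEW replicate 2 stood apart from the other arrays: the mean of 30 heat shock and chaperone genes was 10.21 to 10.26 in the BD/SEW lungs, against 10.23, 11.59 and 10.30 in the SEW lungs. In many inflammatory genes described below its value lay between the other SEW lungs and the BD/SEW lungs. Of the genes that rose, SEW replicate 2 was the SEW array nearest to the BD/SEW lungs in 333 (49.26%). BD/SEW replicate 3 was the nearest of its group to the SEW lungs in 352 of them (52.07%). Of the genes that fell, SEW replicate 2 was nearest in 142 (19.83%) and SEW replicate 1 in 365 (50.98%). The part of these arrays in the results was not tested beyond leaving each out in turn.

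Rises and falls were near equal in number in BD/SEW lungs, and the largest changes were rises. Of the 14217 genes, 676 rose (4.75%) and 716 fell (5.04%). In all 1392 were called (9.79%), and each count in a gene list below stands beside these shares. The rises had a median of 0.91 log2 units and reached at least 2-fold in 299 genes (2.1% of all), at least 4-fold in 86 and at least 16-fold in 6. Falls had a median of -0.60, reached at least 2-fold in 76 genes (0.535% of all) and at least 4-fold in 8, and none reached 8-fold. In 106 of the rises the SEW mean lay below the lower quartile of all gene means, as did the BD/SEW mean in 57 of the falls. The sizes of these changes are uncertain. The arrays of the groups did not overlap in 670 of the genes that rose and in 714 of those that fell, beside 4519 genes (31.8%) in the whole table. When 1 compared array was left out at a time, 394 of the rises (58.28%) and 259 of the falls (36.17%) were called in all 6 fits. Without BD/SEW replicate 2 the number of rises was 438. The number of falls was 339, 365 and 377 without BD/SEW replicates 1, 2 and 3 in turn and 470 without SEW replicate 3. The median difference of all genes was -0.01.

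**Figure D1:**
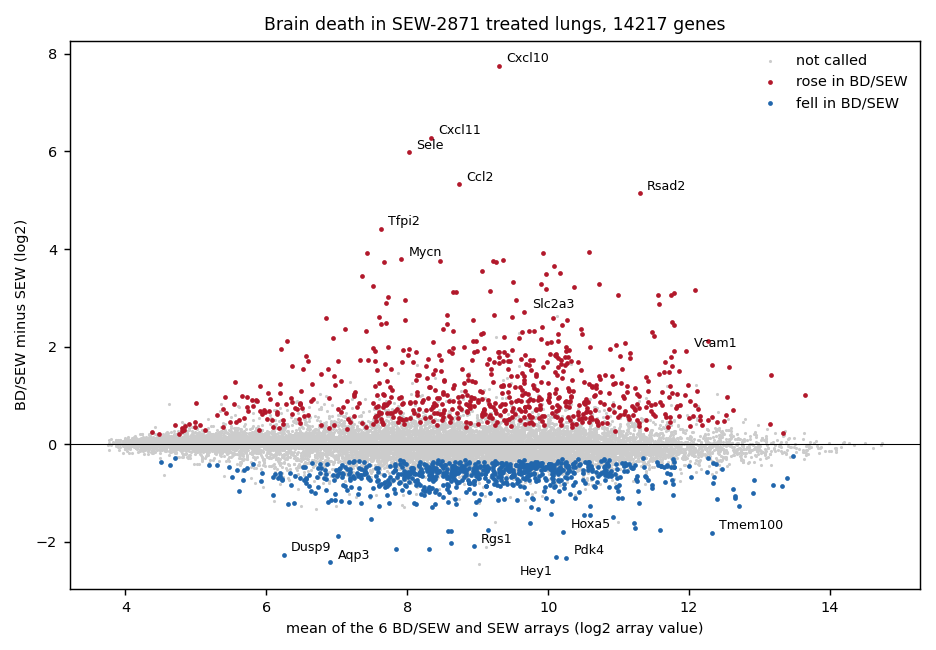
Difference between BD/SEW and SEW lungs (BD/SEW minus SEW, log2) against the mean of the 6 arrays (log2 array value), 1 point per gene of 14217. The 676 genes that rose (red) reach up to 7.76 (Cxcl10), while the 716 that fell (blue) reach down to -2.41 (Aqp3), with Aqp3, Pdk4, Hey1 and Dusp9 the lowest of the labelled points.

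The promoters of 4 of the genes with the largest rises are shown because they hold short motifs known from inflammatory and interferon genes. They were picked for these matches and do not stand for the other large rises. Sequences are from RefSeq, build GRCr8, and run from 250 bases before the start of the gene up to the start, 5′ to 3′ on the strand of the gene. Capitals mark every match, on either strand, to the kappa-B consensus bound by NF-kappa-B, the interferon-stimulated response element (a pair of GAAA with 2 bases between), the AP-1 site (TGANTCA) and the cyclic AMP response element (TGACGTCA). In Cxcl10, an interferon-inducible chemokine gene at chr14:15988816-15989065 on the plus strand, they are from left to right the interferon element, a kappa-B match and an AP-1 site. In Cxcl2, a neutrophil chemokine gene at chr14:17467256-17467505 on the minus strand, 2 overlapping kappa-B matches stand 74 and 73 bases before the start. In Il6, the interleukin 6 gene at chr4:5894576-5894825 on the minus strand, a cyclic AMP element stands 162 bases and a kappa-B match 68 bases before the start. In Rsad2, the gene of the antiviral enzyme viperin at chr6:48788121-48788370 on the minus strand, a match to the interferon element on the other strand starts 147 bases before the start.
Cxcl10: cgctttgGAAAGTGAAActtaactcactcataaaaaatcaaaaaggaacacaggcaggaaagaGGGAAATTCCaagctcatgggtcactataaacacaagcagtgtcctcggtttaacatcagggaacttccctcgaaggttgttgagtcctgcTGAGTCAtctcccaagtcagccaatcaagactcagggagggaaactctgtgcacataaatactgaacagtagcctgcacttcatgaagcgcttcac
Cxcl2: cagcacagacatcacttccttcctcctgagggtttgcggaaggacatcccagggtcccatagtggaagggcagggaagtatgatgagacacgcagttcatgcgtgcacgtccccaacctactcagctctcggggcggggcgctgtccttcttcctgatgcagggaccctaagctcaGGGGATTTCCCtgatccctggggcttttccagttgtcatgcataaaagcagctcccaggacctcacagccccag
Il6: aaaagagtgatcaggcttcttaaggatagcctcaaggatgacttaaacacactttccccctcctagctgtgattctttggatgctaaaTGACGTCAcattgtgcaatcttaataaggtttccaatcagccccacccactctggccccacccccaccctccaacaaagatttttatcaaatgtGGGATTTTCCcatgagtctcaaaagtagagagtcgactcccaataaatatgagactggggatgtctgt
Rsad2: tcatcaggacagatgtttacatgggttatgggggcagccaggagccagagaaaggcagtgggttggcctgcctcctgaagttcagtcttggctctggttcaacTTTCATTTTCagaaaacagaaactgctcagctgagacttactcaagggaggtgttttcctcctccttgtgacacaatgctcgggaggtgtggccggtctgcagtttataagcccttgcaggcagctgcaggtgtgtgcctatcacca

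A promoter from 250 bases before to 50 after the start was given for 11733 of the genes. The kappa-B consensus was found in 11.03% of the 544 promoters of genes that rose, in 4.09% of the 611 of genes that fell and in 4.93% of all, and in 9 of 17 promoters of NF-kappa-B subunits and inhibitors. The interferon element was found in 8.27%, 1.15% and 2.99% of the same sets, and in 16 of 22 promoters of interferon-stimulated antiviral genes. AP-1 sites were found in 8.82% of the promoters of genes that rose, in 2.95% of those of genes that fell and in 5.44% of all, and cyclic AMP elements in 2.57%, 4.26% and 2.86% of the same sets. Of the 30 largest rises 22 had a promoter, with a kappa-B match in 7, the interferon element in 4 and an AP-1 site in 5. Of the 30 largest falls 20 had a promoter, with a kappa-B match in 2, the interferon element in 0 and an AP-1 site in 0. Promoters of Sele, Tnf and Il1b held none of the motifs. The counts are of matches of letters in a short window and are given as a description, with no test.

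Chemokines held the largest rises of all. Of 19 measured CXC chemokine and receptor genes, 7 rose and 1 fell (median 0.47), and of 25 CC chemokine and receptor genes 8 rose and 0 fell (median 0.29). The shares called were 42.1% and 32%, against 9.79% of all genes. Cxcl10, whose product draws in T cells and NK cells through CXCR3, was 13.05, 13.45 and 13.06 in the BD/SEW lungs, against 5.27, 5.88 and 5.14 in the SEW lungs. The groups lay far apart, by 7.76 ± 0.70 (adjusted p = 9.6e-05), and all 3 SEW values were near the lower quartile of the arrays. Whether values this low stood above background was not tested, so the size of such a rise is uncertain. Cxcl11, a ligand of the same receptor, was 11.04, 11.77 and 11.64 with brain death, against 5.16, 5.44 and 5.01 without it (6.28 ± 0.67, adjusted p = 0.00026), and Cxcl9, the other member of this trio, rose by 3.03 ± 0.49. The receptor gene Cxcr3 itself fell by 0.46 ± 0.12 (adjusted p = 0.036), a call that stood in 0 of the 6 fits with an array left out. In bulk tissue, a change in the number of cells that carry a transcript and a change in the transcript per cell cannot be told apart.

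Neutrophil chemokines rose as well, with SEW replicate 2 between the groups. Cxcl2 was 11.69, 11.91 and 11.03 in the BD/SEW lungs, against 7.96, 10.12 and 6.71 in the SEW lungs, and Cxcl1 was 13.87, 13.46 and 12.70 with brain death, against 10.30, 10.89 and 9.53 without it. The groups did not overlap in either gene, and the differences were 3.28 ± 0.63 (adjusted p = 0.007) and 3.10 ± 0.36 (adjusted p = 0.00043). Among the CC chemokines, Ccl2, which recruits monocytes, was 12.33, 11.44 and 10.44 in the BD/SEW lungs, against 5.49, 7.27 and 5.47 in the SEW lungs, a difference of 5.33 ± 0.70 in which the 3 BD/SEW lungs spread widely. Its neighbour Ccl7 rose by 3.44 ± 0.55, the macrophage inflammatory proteins Ccl3 and Ccl4 by 3.48 ± 0.40 and 2.54 ± 0.39, and the membrane-bound chemokine Cx3cl1 by 1.92 ± 0.29. Of the receptor genes, Ccr1 rose by 1.81 ± 0.41 and the chemerin-binding Ccrl2 by 3.22 ± 0.23, while Cxcr2, a receptor of neutrophils, did not pass at 1.62 ± 0.49 (adjusted p = 0.06). Neutrophil and platelet markers were higher in the BD/SEW lungs too, with the values given below, and their part in the chemokine and cytokine rises was not tested. The homeostatic chemokine genes Cxcl12 and Ccl21 did not pass: Cxcl12 differed by -0.09 ± 0.14 and Ccl21 by 0.28 ± 0.14.

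Cytokine genes rose in part of each family. Il6 was 10.04, 9.57 and 8.57 in the BD/SEW lungs, against 4.57, 7.28 and 4.57 in the SEW lungs. Its lowest BD/SEW value stood above SEW replicate 2, the highest of the SEW lungs, and it rose by 3.92 ± 0.74 (adjusted p = 0.0064). In the interleukin 6 family with its SOCS inhibitors, 6 of 20 genes rose and 1 fell (median 0.40, 35% called, against 9.79% of all genes). The inhibitors Socs1, Cish and Socs3 rose by 2.37 ± 0.30, 1.89 ± 0.19 and 1.69 ± 0.45, the arrays of Socs3 overlapping, and the STAT-induced kinase gene Pim1 by 2.17 ± 0.30. The receptor gene Il6r was 10.46, 10.39 and 10.41 in the BD/SEW lungs, against 11.35, 11.21 and 11.34 in the SEW lungs. It fell by 0.88 ± 0.11 with little spread in either group, and by the same amount in BD against sham (-0.88 ± 0.11, adjusted p = 0.0043).

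Of 14 interleukin 1 family genes, 3 rose and 0 fell (21.4%, against 4.75% of all genes that rose). Il1b was 13.71, 13.75 and 13.54 in the BD/SEW lungs, against 9.47, 12.23 and 9.82 in the SEW lungs, a rise of 3.16 ± 0.53 in which SEW replicate 2 lay nearer to the BD/SEW lungs than to its own group. The antagonist gene Il1rn rose by 1.93 ± 0.49, with overlapping arrays, and the receptor Il1r1 by 0.58 ± 0.11, for which another probe set gave -0.08. Without SEW replicate 2, 5 genes of this list rose. In the TNF family, 8 of 25 genes rose and 0 fell (32%, against 4.75% of all genes that rose, median 0.43). Tnf was 10.03, 10.45 and 10.55 with brain death, against 6.55, 7.49 and 5.75 without it, and rose by 3.75 ± 0.34 (adjusted p = 9.4e-05). A second probe set of Tnf gave 1.23. The costimulatory receptor Cd40, lymphotoxin beta (Ltb), the death ligand Tnfsf10 and the death receptor Fas rose by 2.28 ± 0.14, 2.15 ± 0.36, 1.83 ± 0.18 and 1.54 ± 0.22. Tnfrsf1b, the second TNF receptor, rose by 1.72 ± 0.42 and was called in 1 of 6 fits with an array left out, while Tnfrsf1a did not pass (0.47 ± 0.17, adjusted p = 0.11). Among 30 colony-stimulating factors, lymphoid cytokines and their receptors 7 rose, led by Ebi3, a subunit of cytokines of the interleukin 12 family, at 12.08, 12.03 and 11.54 in the BD/SEW lungs, against 7.52, 9.50 and 6.89 in the SEW lungs (3.91 ± 0.50). Csf3, the granulocyte colony-stimulating factor, rose by 1.54 ± 0.32, the anti-inflammatory cytokine Il10 by 0.97 ± 0.15 and its receptor Il10ra by 1.25 ± 0.12.

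Many subunits and inhibitors of NF-kappa-B rose. Of 21 measured, 12 rose and 0 fell (57.1%, median 0.78, against 4.75% of all genes), and their mean was 10.48 to 10.70 in the BD/SEW lungs, against 9.26 to 9.77 in the SEW lungs. The subunits Relb and Nfkb2 rose by 2.26 ± 0.15 and 2.09 ± 0.18, Nfkb1 by 0.82 ± 0.09 and Rela by 0.67 ± 0.11. Tnfaip3, the ubiquitin-editing enzyme A20, was 13.10, 13.04 and 12.90 in the BD/SEW lungs, against 9.92, 10.76 and 9.72 in the SEW lungs (2.88 ± 0.23, adjusted p = 4.6e-05). The groups were separate by more than 2 units, and SEW replicate 2 was the highest of its group. The ubiquitin ligase gene Birc3 rose by 3.50 ± 0.26, the atypical inhibitors Bcl3 and Nfkbiz by 2.59 ± 0.22 and 2.31 ± 0.30, and the A20-binding Tnip1 by 1.49 ± 0.20. A second probe set of Nfkbiz gave 0.01. The classical inhibitor Nfkbia did not pass (0.28 ± 0.09, adjusted p = 0.088), nor did the kinase genes Chuk (-0.19), Ikbkb (-0.09) and Map3k14 (0.08).

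Some receptors that signal to NF-kappa-B rose beside it. Of 21 Toll-like receptor, NOD and RIPK genes 8 rose and 1 fell (42.9% called, against 9.79% of all genes). Ripk2, the kinase of the NOD receptors, rose by 2.64 ± 0.29, Tlr2 by 2.19 ± 0.37, Tlr7 by 2.09 ± 0.33 and the inhibitory Irak3 by 1.89 ± 0.21, while the adaptor genes Myd88 and Traf6 rose by 0.81 ± 0.12 and 0.58 ± 0.12. Tlr4 had a lower value that did not pass (-1.09 ± 0.37, adjusted p = 0.093), and the adaptor Ticam1 fell by 0.66 ± 0.17, called in 3 of 6 fits with an array left out. In the apoptosis list 4 of 22 rose and 2 fell, and the members that rose include the inhibitors Cflar (2.96 ± 0.27) and Bcl2a1 (1.86 ± 0.25). Rises were 2 in this list when BD/SEW replicate 1 or 2 or SEW replicate 3 was left out. Of 16 factors that destroy or shield cytokine mRNA 2 rose, Zfp36 by 0.53 ± 0.11 and the endonuclease gene Zc3h12a (regnase-1) by 3.55 ± 0.27. Zc3h12a was 11.19, 10.79 and 10.51 in the BD/SEW lungs, against 7.37, 7.84 and 6.62 in the SEW lungs, so that all 3 BD/SEW lungs stood at least 2 units above any SEW lung. Without SEW replicate 2 there were 4 rises among these factors.

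Interferon-stimulated antiviral genes rose in a larger share than the members of any of the other 58 lists counted: 22 of 31 measured rose (71%) and 0 fell, 20 of them at least 2-fold, with a median of 1.64. Rsad2 was 13.70, 14.12 and 13.79 in the BD/SEW lungs, against 8.53, 8.83 and 8.83 in the SEW lungs. The 3 lungs of each group lay close together, and the rise was 5.14 ± 0.63 or 35.3-fold (adjusted p = 0.00061). Cmpk2, its neighbour in the genome and a mitochondrial nucleotide kinase gene, rose by 3.93 ± 0.55, Gbp4 and Gbp2, guanylate-binding GTPases, by 3.73 ± 0.41 and 3.07 ± 0.46, and Isg15, a ubiquitin-like modifier, by 3.05 ± 0.47. The RNA sensors and effectors Oasl, Oas1b, Ifit2, Ifit3, Dhx58 and Eif2ak2 rose by 3.17, 2.89, 2.51, 3.06, 2.31 and 1.73. Genes of the Oas, Ifit and Gbp families are similar in sequence, so their values are less certain. Mx1 had a large value that did not pass (2.28 ± 0.74, adjusted p = 0.077), and Ifitm3 (0.11) and Bst2 (-0.33) did not pass either.

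Several factors that drive these genes rose too. Irf1 was 13.11, 13.06 and 12.82 in the BD/SEW lungs, against 10.46, 10.95 and 10.27 in the SEW lungs (2.44 ± 0.17, adjusted p = 1.5e-05), and every BD/SEW lung was well above every SEW lung. Irf7, the amplifier of the type I interferon response, rose by 1.77 ± 0.34, Irf9 by 0.59 ± 0.14, and Stat2 and Stat3 by 1.34 ± 0.20 and 0.60 ± 0.11, and the interferon receptor genes Ifngr2, Ifnar2 and Ifnar1 by 1.23 ± 0.18, 1.0 ± 0.18 and 0.75 ± 0.20. In all, 10 of 21 IRF, STAT and receptor genes rose and 1 fell, and 6 rose without BD/SEW replicate 2. Irf3, which is activated by phosphorylation, fell by 0.38 ± 0.11 and was called in 1 of 6 fits with an array left out. Among 17 MHC class I processing genes Tap1 (1.87 ± 0.24) and Psmb9 (0.63 ± 0.16) rose, neighbouring genes of the peptide transporter and of an immunoproteasome subunit. This count was 1 in each of the 6 fits with an array left out. B2m, the light chain of class I molecules, was 14.04, 14.11 and 14 in the BD/SEW lungs, against 14.12, 14.16 and 14.09 in the SEW lungs, and did not pass. In the class II list of 17, the rises were those of the costimulatory molecules Cd40 (2.28), Cd83 (1.40 ± 0.20) and Cd86 (1.0 ± 0.21) and of the class II regulator Rfx5 (0.76 ± 0.10), while Cd74 (0.06) and Ciita (0.40) did not pass. Of 26 constitutive proteasome genes 1 rose.

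**Figure D2:**
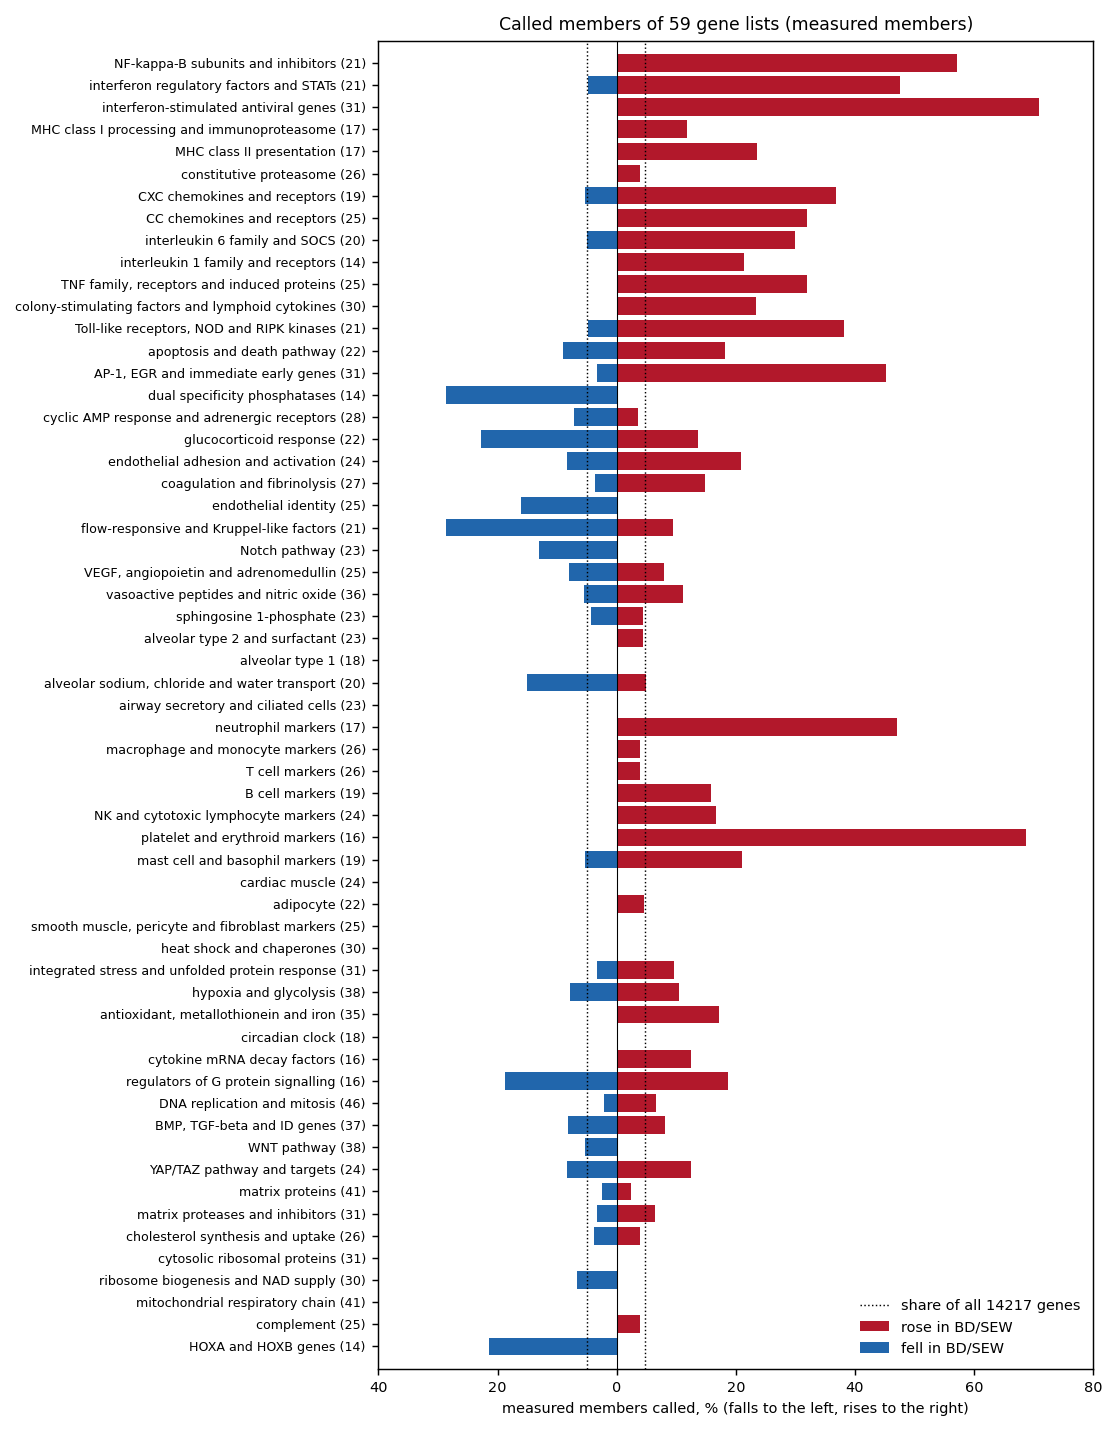
Share of the measured members of each of 59 gene lists that rose (red, to the right) or fell (blue, to the left) in BD/SEW against SEW lungs, in percent, with the number measured in brackets and dotted lines at the shares over all genes, 4.75% and 5.04%. The longest bars to the right are those of antiviral, platelet, NF-kappa-B and interferon factor genes, and the longest to the left those of dual specificity phosphatases and of flow-responsive and Kruppel-like factors.

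Immediate early transcription factor genes, which respond quickly to many stimuli, rose in 14 of 31 cases and fell in 1 (median 0.69). Mycn, of the MYC family, was 9.87, 9.48 and 10.09 in the BD/SEW lungs, against 6.10, 6.48 and 5.48 in the SEW lungs. The rise was 3.79 ± 0.32, and it was 2.94 ± 0.32 in BD against sham. Batf, an AP-1 partner in leukocytes, rose by 3.76 ± 0.42, the stress factor Atf3 by 2.08 ± 0.28, Egr1 by 1.60 ± 0.33, Junb by 1.55 ± 0.30 and Gadd45a by 1.48 ± 0.22. Jun (-0.19) and Myc (0.53) did not pass. The nuclear receptor gene Nr4a2, which cyclic AMP induces, was 7.79, 7.73 and 7.94 in the BD/SEW lungs, against 8.88, 8.85 and 8.63 in the SEW lungs and fell by 0.97 ± 0.11. Beyond this list, Rnd1, whose product loosens cell adhesion, was 11.72, 11.38 and 10.62 in the BD/SEW lungs, against 7.69, 7.42 and 7.30 in the SEW lungs, a rise of 3.77 ± 0.30 (adjusted p = 4.6e-05). Cks2, a subunit of cyclin-dependent kinases, rose by 3.12 ± 0.19 and Inhba, a subunit of activin A, by 3.23 ± 0.26. A second probe set of Inhba gave 0.35.

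Dual specificity phosphatases, which switch off MAP kinases, fell in part. Of the 14 measured, 0 rose and 4 fell (28.6%, against 5.04% of all genes), and the median was -0.31. Dusp9, which acts on ERK and p38 kinases, was 5.20, 5.01 and 5.14 in the BD/SEW lungs, against 8.10, 7.11 and 6.94 in the SEW lungs. Every BD/SEW lung lay below the lower quartile of its array, near 5.6, while no SEW lung did, and it fell by 2.27 ± 0.29 (adjusted p = 0.00084). Dusp1, a phosphatase that glucocorticoids and cyclic AMP induce, fell by 0.68 ± 0.10, and its other probe set gave -2.26. Of 16 regulators of G protein signalling 3 rose and 3 fell. Rgs1, abundant in leukocytes, was 7.94, 7.97 and 7.78 in the BD/SEW lungs, against 10.43, 9.74 and 9.79 in the SEW lungs and fell by 2.09 ± 0.20, while Rgs16 and the platelet gene Rgs18 rose by 1.35 ± 0.27 and 1.76 ± 0.21. Without any one of the BD/SEW arrays or SEW replicate 2 there was 1 fall in this list.

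Genes that adrenaline and glucocorticoids induce did not move as a block. Of 28 cyclic AMP response and adrenergic receptor genes 1 rose and 2 fell (10.7% called, near the 9.79% of all genes). The fallers were Sik1 (-1.12 ± 0.13) and Crem (-1.10 ± 0.28), and the beta-1 adrenergic receptor Adrb1 rose by 0.67 ± 0.19, with 0 calls in the 6 fits with an array left out. Leaving out SEW replicate 2 gave 4 falls, and leaving out BD/SEW replicate 2 or 3 or SEW replicate 1 or 3 gave 1. Of 22 glucocorticoid response genes 3 rose and 5 fell (36.4% called). Pdk4, which shuts down pyruvate oxidation, was 9.02, 9.05 and 9.22 in the BD/SEW lungs, against 11.25, 11.82 and 11.18 in the SEW lungs, and fell by 2.32 ± 0.41. Tsc22d3, which encodes the anti-inflammatory protein GILZ, fell by 1.12 ± 0.14, the mTORC1 inhibitor Ddit4 fell by 1.61 ± 0.24 and Errfi1, an inhibitor of EGF receptors, fell by 1.06 ± 0.16. Sgk1, a kinase that raises sodium transport, went the other way, at 12.55, 12.70 and 12.52 in the BD/SEW lungs, against 11.74, 11.09 and 11.30 in the SEW lungs (1.21 ± 0.17). Fkbp5 (-0.50 ± 0.19, adjusted p = 0.13) and Per1 (-0.54 ± 0.20, adjusted p = 0.12) did not pass, and neither did the receptor gene Nr3c1 (0.16).

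Among endothelial adhesion and activation genes, 5 of 24 rose and 2 fell (median 0.03, 29.2% called, against 9.79% of all genes). Sele, the endothelium-restricted selectin, was 11.56, 11.04 and 10.45 in the BD/SEW lungs, against 4.31, 6.16 and 4.63 in the SEW lungs. All BD/SEW values were more than 4 units above the highest SEW value, and the rise was 5.98 ± 0.48 (adjusted p = 4.6e-05). As for Cxcl10, the mean of the SEW lungs lay below the lower quartile, so the size of the rise is uncertain. Selp, the selectin that endothelium and platelets store, was 12.29, 12.17 and 11.26 in the BD/SEW lungs, against 7.87, 9.56 and 7.34 in the SEW lungs (3.65 ± 0.47), and its second probe set gave 0.34. Vcam1 rose by 1.92 ± 0.15, Icam1 by 1.59 ± 0.18 and the venular chemokine binder Ackr1 by 1.41 ± 0.23. The falls were those of the junction gene Jam2 (-0.45 ± 0.10) and Procr, the receptor of activated protein C (-0.96 ± 0.18). Pecam1 (-0.05) and Icam2 (-0.07) did not pass.

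Among 25 endothelial identity genes 0 rose and 4 fell (16.0%, against 5.04% of all genes that fell). Cldn5, the tight junction protein of endothelium, was 12.89, 12.62 and 12.80 in the BD/SEW lungs, against 13.69, 13.56 and 13.55 in the SEW lungs and fell by 0.83 ± 0.13. The arterial factor Sox17 fell by 0.88 ± 0.24, the nitric oxide synthase Nos3 fell by 1.05 ± 0.22, and the peptide gene Apln, its arrays overlapping, fell by 1.05 ± 0.25. The count of falls was 1 with BD/SEW replicate 2 left out, and 2 with BD/SEW replicate 3 or SEW replicate 1 or 3 left out. Among 21 flow-responsive and Kruppel-like factor genes 2 rose and 6 fell (median -0.23). Klf2 was 10.59, 10.60 and 10.95 in the BD/SEW lungs, against 12.17, 12.64 and 12.58 in the SEW lungs. The groups did not overlap, it fell by 1.75 ± 0.19 (adjusted p = 0.00033), and further probe sets of Klf2 gave values between -2.53 and 0.11. The rises were Klf6 (0.58 ± 0.08) and the oxidative stress factor Nfe2l2 (0.49 ± 0.11). Klf4 fell by 0.90 ± 0.16 and the water channel Aqp1 fell by 1.11 ± 0.23, while thrombomodulin (Thbd) did not pass (-0.28 ± 0.12). Without BD/SEW replicate 2 or 3 the falls in this list were 3 in number.

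The Notch target Hey1 stood out among 23 Notch pathway genes, of which 0 rose and 3 fell (13%, against 5.04% of all genes that fell). It was 8.79, 8.88 and 9.19 in the BD/SEW lungs, against 11.15, 11.30 and 11.32 in the SEW lungs, with the lungs of each group close together, and fell by 2.30 ± 0.30 (adjusted p = 0.00086). The endothelial Notch ligand Dll4 fell by 0.81 ± 0.19 and Notch1 fell by 0.60 ± 0.15, each called in 2 of 6 fits with an array left out. Without BD/SEW replicate 1 or 3 there was 1 fall. In the adjoining BMP and TGF-beta list, 3 of 37 rose and 3 fell. Id1, a direct target of BMP receptors, was 12.43, 12.06 and 11.72 in the BD/SEW lungs, against 13.36, 13.42 and 13.24 in the SEW lungs and fell by 1.27 ± 0.14, and the inhibitory Smad6 fell by 1.44 ± 0.27, for which other probe sets gave -1.61 to 0.01. Tmem100, an endothelial gene downstream of BMP9 in mice, was 11.72, 10.99 and 11.55 in the BD/SEW lungs, against 13.18, 13.20 and 13.31 in the SEW lungs (-1.81 ± 0.24). Fst, whose product binds the activins, fell by 1.42 ± 0.28 where Inhba rose.

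Vasoactive and clotting genes had a few large changes. The tissue factor pathway inhibitor 2 gene, Tfpi2, was 11.27, 9.86 and 8.37 in the BD/SEW lungs, against 4.83, 6.10 and 5.34 in the SEW lungs. It rose by 4.41 ± 0.70 (adjusted p = 0.0024), though the BD/SEW lungs spread widely. Of 27 coagulation genes 4 rose and 1 fell, the rises including F5 (1.71 ± 0.17) and F13a1 (1.61 ± 0.19), whose products platelets also carry. Of 36 vasoactive genes 4 rose and 2 fell. These were Ptges, the inducible prostaglandin E synthase (2.58 ± 0.34), Gch1, which makes the cofactor of nitric oxide synthases (2.31 ± 0.27), cyclooxygenase 2 (Ptgs2, 1.70 ± 0.42) and the prostaglandin E receptor Ptger2 (0.77 ± 0.17) on the rising side. Nos3 fell, as did the endothelin-converting enzyme Ece1 (-0.50 ± 0.11). When BD/SEW replicate 1 or 2 or SEW replicate 3 was left out, 2 genes of this list rose. Edn1, endothelin 1, did not pass (-0.72 ± 0.33, adjusted p = 0.2). Adrenomedullin (Adm) rose by 1.42 ± 0.17, while Ramp3, a subunit of its receptors, was 7.35, 7.29 and 7.07 in the BD/SEW lungs, against 9.61, 9.25 and 9.26 in the SEW lungs and fell by 2.14 ± 0.38. The VEGF genes Vegfa (-0.23) and Kdr (0.27) did not pass.

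The receptor of the agonist did not pass the test. S1pr1 was 13.37, 13.32 and 13.30 in the BD/SEW lungs, against 13.15, 13.37 and 13.33 in the SEW lungs, a difference of 0.05 ± 0.07 (adjusted p = 0.77). Of 23 genes of sphingosine 1-phosphate signalling and turnover 1 rose and 1 fell (8.7% called, near the 9.79% of all genes). S1pr2, whose product opposes S1P1 at junctions, was 8.72, 9.07 and 8.87 in the BD/SEW lungs, against 7.73, 7.80 and 7.63 in the SEW lungs and rose by 1.17 ± 0.15, with a second probe set at 0.28. Acer2, a ceramidase gene of the route to sphingosine, fell by 1.01 ± 0.15. Without SEW replicate 2 there were 3 falls in this list.

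**Figure D3:**
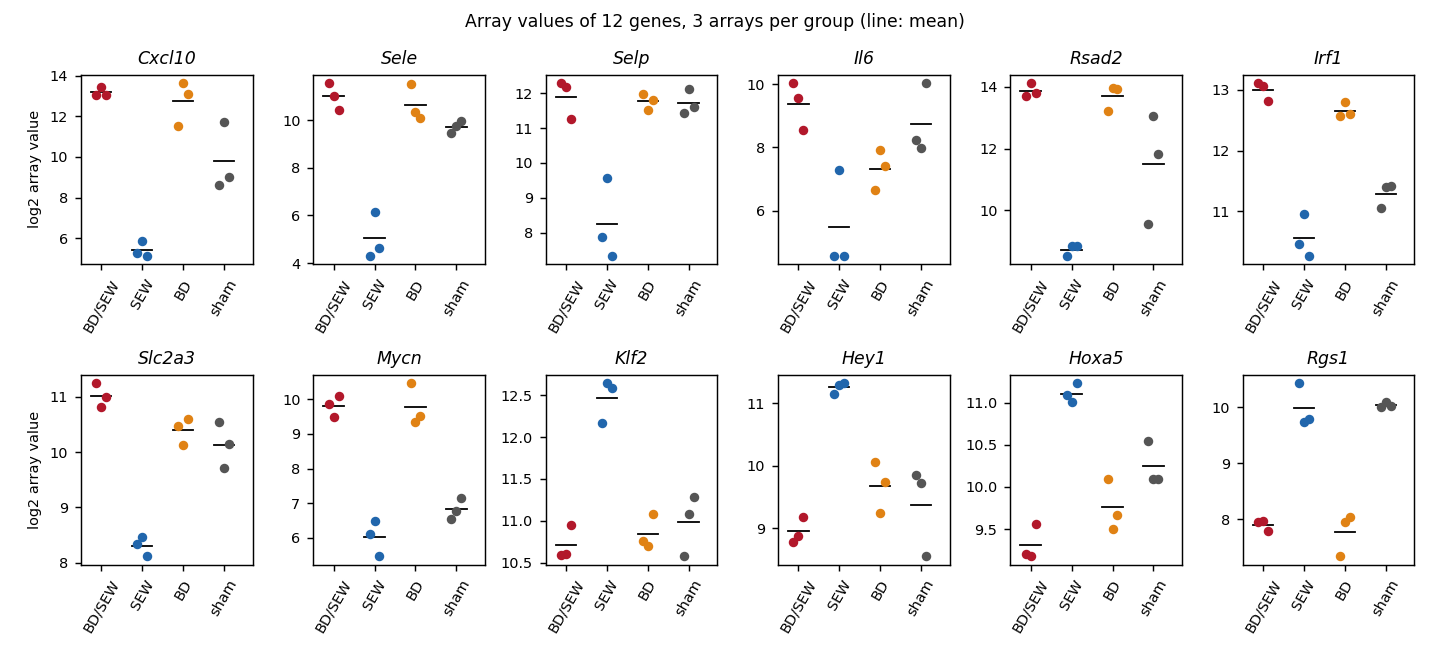
Log2 array values of 12 genes on each of the 3 arrays (points) of the BD/SEW, SEW, BD and sham groups, with group means as lines. For Sele, Selp and Slc2a3 the 3 SEW lungs lie below all other lungs, for Klf2, Hey1 and Hoxa5 they lie above all other lungs, and for Rgs1 and Mycn the SEW and sham lungs stand together apart from the BD/SEW and BD lungs.

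Few epithelial genes passed. Of 23 alveolar type 2 genes Lpcat1, which makes surfactant lipid, rose by 0.62 ± 0.10 and 0 fell. By limma 0 of 18 alveolar type 1 genes and 0 of 23 airway genes were called, with 1 and 0 at an unadjusted p under 0.05. Sftpc, the surfactant protein C gene, was 14.57, 14.61 and 14.55 in the BD/SEW lungs, against 14.66, 14.67 and 14.60 in the SEW lungs. Scgb1a1, the club cell secretory protein, was 14.71, 14.75 and 14.78 in the BD/SEW lungs, against 14.48, 14.81 and 14.87 in the SEW lungs, and neither passed. In the list of sodium, chloride and water transport 1 of 20 rose (Sgk1) and 3 fell, the water channels Aqp1, Aqp3 and Aqp4. Aqp3 was 5.80, 5.69 and 5.61 in the BD/SEW lungs, against 7.36, 9.06 and 7.92 in the SEW lungs. It fell by 2.41 ± 0.45 (adjusted p = 0.0056), the largest among the 716 falls, and all BD/SEW values were near the lower quartile of the arrays. Aqp4 fell by 0.95 ± 0.20, and Aqp5, the water channel of type 1 cells, did not pass (0.43 ± 0.25). The sodium channel subunits Scnn1a (0.04), Scnn1b (0.24) and Scnn1g (0.22) did not pass. Without BD/SEW replicate 3, 1 gene of this list fell.

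Platelet genes rose together. In the list of 16 platelet and erythroid genes 11 rose and 0 fell (68.8%), and the risers were the 11 platelet members, with a median of 1.68, while 0 of the 5 erythroid members passed. Selp, given above as an adhesion gene, is counted among the 11 here and in their means. With an array left out 8 to 11 genes of this list rose, and 9 without SEW replicate 2. Tubb1, the platelet tubulin, was 11.43, 11.45 and 10.95 in the BD/SEW lungs, against 9.52, 8.16 and 9.34 in the SEW lungs, a rise of 2.27 ± 0.34. Itga2b, the fibrinogen receptor subunit, was 9.57, 9.61 and 8.93 in the BD/SEW lungs, against 7.91, 6.95 and 7.76 in the SEW lungs (1.83 ± 0.29), and the platelet factor gene Pf4 was 11.32, 11.38 and 10.59 with brain death, against 9.86, 8.90 and 9.51 without it (1.67 ± 0.26). The groups did not overlap in these genes, BD/SEW replicate 3 was lowest of its group and SEW replicate 2 lowest of its own. Gp5, Treml1, Clec1b and P2ry12 rose by 1.72 ± 0.27, 1.68 ± 0.33, 1.69 ± 0.38 and 1.21 ± 0.14. The mean of the 11 was 9.65, 9.58 and 8.90 in the BD/SEW lungs, against 7.83, 7.39 and 7.61 in the SEW lungs. In the lungs without agonist it was 8.49, 8.43 and 8.68 in BD, against 7.88, 8.0 and 8.57 in sham. The hemoglobin gene Hbb was 11.70, 13.58 and 13.16 in the BD/SEW lungs, against 13.20, 10.85 and 12.86 in the SEW lungs, with wide overlap. Whether blood left in the vessels differed between the groups was not tested.

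All 17 measured neutrophil markers had a higher mean in the BD/SEW lungs, with a median of 1.25, against -0.01 over all genes. Of them 8 rose and 0 fell (47.1%, against 4.75% of all genes that rose). Camp, an antimicrobial granule protein, was 11.37, 10.78 and 11.22 in the BD/SEW lungs, against 6.81, 8.64 and 6.72 in the SEW lungs, and Mmp9, a granule protease, was 11.26, 10.89 and 11.34 with brain death, against 6.96, 9.10 and 7.46 without it. In both genes the groups were separate and SEW replicate 2 stood about 2 units above the other SEW lungs, and the rises were 3.73 ± 0.46 and 3.32 ± 0.45. The calcium-binding proteins S100a8 and S100a9 rose by 1.43 ± 0.32 and 1.01 ± 0.25, and Padi4, the histone-citrullinating enzyme of neutrophils, by 1.73 ± 0.26. Mmp8 (1.84 ± 0.83, adjusted p = 0.2) and Csf3r (1.60 ± 0.63, adjusted p = 0.14) did not pass. The mean of the list was 9.97, 9.72 and 9.66 in the BD/SEW lungs, against 8.04, 9.13 and 8.15 in the SEW lungs. The BD lungs had 9.01 to 9.44 and the sham lungs 8.64 to 9.26, both ranges below the BD/SEW lungs and with SEW replicate 2 inside each. Without SEW replicate 2 the count of rises was 11, and without BD/SEW replicate 1 or SEW replicate 3 it was 5.

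The other blood cell lists had 1 to 4 rises each, while 4.75% of all genes rose. Of the macrophage and the T cell markers 3.85% rose, below that share, and of the B cell and NK lists 15.8% and 16.7%. Of 26 macrophage markers 1 rose, the scavenger receptor Cd163 (0.92 ± 0.13), while Cd68 (0.16) and Csf1r (0.09) did not pass. Without SEW replicate 2, 4 of these markers rose. Of 26 T cell markers the factor Gata3 rose (0.86 ± 0.20, called in 3 of 6 fits with an array left out), while Cd3e (0.32) and Cd3d (0.40) did not pass. Pou2af1, Prdm1 and Ebf1 rose among 19 B cell markers, by 1.52 ± 0.25, 1.28 ± 0.18 and 0.78 ± 0.19, and 5 rose without SEW replicate 2. Of 24 NK and cytotoxic markers 4 rose, among them granzyme B (Gzmb, 2.60 ± 0.47), and Prf1, the pore-forming perforin, did not pass (0.36). Leaving out an array gave 1 rise (BD/SEW replicate 2), 2 rises (BD/SEW replicate 3, SEW replicates 1 and 3) or 6 rises (SEW replicate 2). In the mast cell and basophil list 4 of 19 rose and 1 fell. Mcpt8, the protease of basophils in mice, was 7.34, 7.47 and 7.26 in the BD/SEW lungs, against 5.40, 5.19 and 5.10 in the SEW lungs, a rise of 2.13 ± 0.11 with the lungs of each group close together (adjusted p = 5.6e-06), and histidine decarboxylase (Hdc) rose by 1.18 ± 0.22. All SEW values of Mcpt8 lay below the lower quartile of their arrays, near 5.6, so the size of its rise is uncertain. The mast cell proteases Cma1 (0.22) and Tpsab1 (-0.08) and the stem cell factor receptor Kit (-0.69 ± 0.26, adjusted p = 0.13) did not pass. Of 24 cardiac muscle genes, 25 smooth muscle, pericyte and fibroblast genes and 30 heat shock genes 0 were called by limma, and 0, 4 and 10 of them had an unadjusted p under 0.05, and 1 of 22 adipocyte genes rose (Dgat2, 1.10 ± 0.21).

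**Figure D4:**
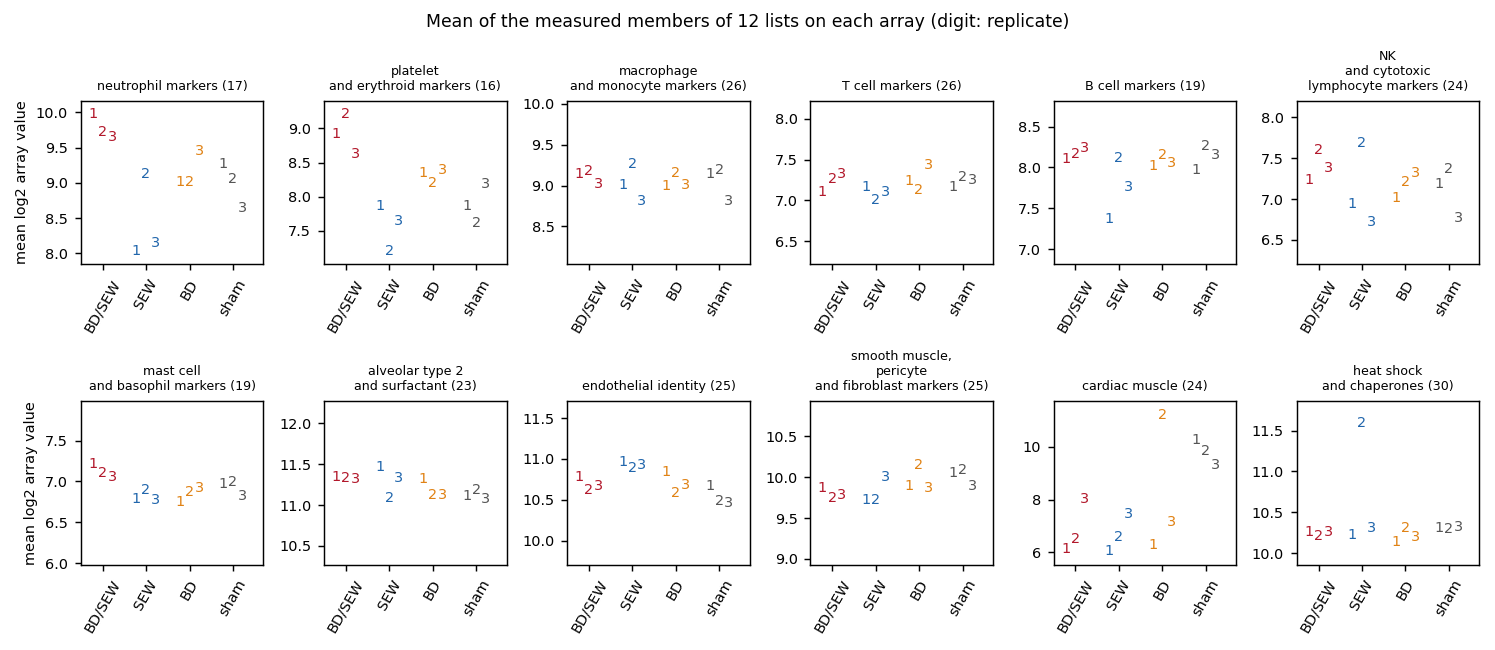
Mean log2 array value of the measured members of 12 lists on each array, with the digit giving the replicate. Neutrophil and platelet means are higher on all 3 BD/SEW arrays than on any SEW array, SEW replicate 2 lies high in neutrophil, NK and heat shock genes, and the cardiac mean is high on the sham arrays and BD replicate 2.

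Of 38 hypoxia and glycolysis genes 4 rose and 3 fell (median -0.03). Slc2a3, the glucose transporter GLUT3, was 11.24, 10.82 and 11 in the BD/SEW lungs, against 8.33, 8.47 and 8.12 in the SEW lungs. The rise of 2.71 ± 0.20 (adjusted p = 3.1e-05) came with the lungs of each group close together, and a second probe set gave 1.36. The transporter Slc2a1 rose by 1.12 ± 0.17 and the first glycolytic enzyme Hk1 by 1.17 ± 0.15, while Ldha (-0.01), Pgk1 (0.01) and the hypoxia factor Hif1a (0.23) did not pass. The falls were 1 without BD/SEW replicate 2 or 3. Mitochondrial superoxide dismutase (Sod2), an NF-kappa-B target, was 13.55, 13.39 and 13.03 in the BD/SEW lungs, against 10.65, 12.59 and 10.41 in the SEW lungs, rising by 2.11 ± 0.44. The cystine transporter Slc7a11 was 8.08, 8.86 and 8.58 in the BD/SEW lungs, against 6.58, 6.50 and 6.68 in the SEW lungs and rose by 1.92 ± 0.18. The stress phosphatase subunit Ppp1r15a rose by 1.07 ± 0.16, while Atf4 (0.11) and Hspa5 (-0.18) did not pass. In the antioxidant list 6 of 35 rose, and 3 without BD/SEW replicate 1 or BD/SEW replicate 2. Hmox1, heme oxygenase 1, did not pass (0.26 ± 0.43, adjusted p = 0.78).

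Growth and patterning genes gave a short list of falls. Of 14 measured HOX, T-box and related mesenchymal factor genes 0 rose and 3 fell. Hoxa5, which patterns the developing lung in mice, was 9.20, 9.18 and 9.56 in the BD/SEW lungs, against 11.09, 11.01 and 11.23 in the SEW lungs. The groups were well apart, and Hoxa5 fell by 1.80 ± 0.18 (adjusted p = 0.00016). Foxf1, a lung mesenchymal and endothelial factor, fell by 0.96 ± 0.17 and Hoxb6 fell by 0.61 ± 0.14. The Groucho corepressor Tle1 was 7.22, 7.60 and 8.01 in the BD/SEW lungs, against 9.41, 9.70 and 9.80 in the SEW lungs (-2.03 ± 0.20). The cannabinoid receptor Cnr1 fell by 1.76 ± 0.20, and its second probe set gave -0.12. The WNT receptor Fzd8 fell by 1.29 ± 0.29 and was called in 3 of 6 fits with an array left out. In the WNT list of 38 genes 0 rose and 2 fell. There were 0 falls when SEW replicate 3 or BD/SEW replicate 1 was left out and 1 when SEW replicate 1 or BD/SEW replicate 2 was. Proliferation genes were close to the background, with 3 of 46 rising and 1 falling. Mki67 rose by 1.45 ± 0.27 and Mcm3 by 0.72 ± 0.14, while Top2a did not pass (0.70 ± 0.26, adjusted p = 0.11). Of 41 matrix protein genes 1 rose and 1 fell, and the metalloproteinase gene Adamts9 fell by 1.49 ± 0.18. A second probe set of Adamts9 gave 0.19.

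Some lists had few calls but most of their means on one side. Of 41 mitochondrial respiratory chain genes 36 had a lower mean in the BD/SEW lungs, with a median of -0.14 and 0 calls by limma (5 at an unadjusted p under 0.05). Of 31 cytosolic ribosomal protein genes 27 had a lower mean (median -0.12, 9 at an unadjusted p under 0.05 and 0 called by limma), and of 26 constitutive proteasome genes 19 (median -0.11). Of 30 heat shock genes 26 were lower (median -0.36), and their high values on SEW replicate 2 stand above. Over all genes the median was -0.01.

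Further genes of the largest changes and of the interaction are given here, most of them in none of these lists. Tnfaip2, a gene that TNF induces in endothelium, was 11.54, 10.56 and 10.14 in the BD/SEW lungs, against 7.12, 8.22 and 7.49 in the SEW lungs and rose by 3.14 ± 0.36, with other probe sets between -0.06 and 2.41. The guanylate-binding relative Gbp7 rose by 3.29 ± 0.33 and Rtp3, of a family of receptor transporters, was 10.33, 10.40 and 10.01 in the BD/SEW lungs, against 7.04, 7.70 and 6.64 in the SEW lungs (3.12 ± 0.26). Among the falls, Fam222a was 6.73, 6.71 and 6.85 in the BD/SEW lungs, against 9.36, 8.46 and 8.91 in the SEW lungs and fell by 2.15 ± 0.19, all 3 BD/SEW lungs below all 3 SEW lungs. The zinc finger gene Zfp800 (-1.87 ± 0.28), S100pbp (-1.78 ± 0.19), Tcim (-1.72 ± 0.23), the aspartate aminotransferase gene Got1 (-1.62 ± 0.30) and the galactosyltransferase gene B4galt4 (-1.33 ± 0.17) fell as well. So did the mitochondrial carriers Slc25a15 (-1.46 ± 0.33) and Slc25a33 (-1.26 ± 0.26). Slc25a15 was called in 3 of 6 fits with an array left out, and its further probe sets gave values between -2.01 and 0.03. Taf5, a subunit of the general transcription factor TFIID, fell by 1.26 ± 0.16. The unnamed loci LOC102555465 and C12h12orf76 had -1.77 ± 0.20 and -1.53 ± 0.19, and both passed. The immediate early factor Klf10 (-0.66 ± 0.16), Zbtb8a (-0.78 ± 0.14) and the adaptor gene Sh2d3c (-0.88 ± 0.14) fell too. Of these, Klf10 was called in 1 of 6 fits with an array left out.

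The remaining lists had at most 3 calls in either direction. Of 25 complement genes 1 rose and 0 fell, but 4 rose without SEW replicate 2 and 2 without SEW replicate 3. Of 26 cholesterol genes 1 rose and 1 fell, with 2 rises and 3 falls without SEW replicate 2. Of 31 matrix protease and inhibitor genes 2 rose and 1 fell. Of 24 YAP and TAZ pathway genes 3 rose and 2 fell, but the rises were 1 without SEW replicate 1 or any one BD/SEW array and the falls 0 without SEW replicate 1 or 2 or any one BD/SEW array. Of 31 genes of the unfolded protein and integrated stress responses 3 rose (5 without SEW replicate 1) and 1 fell, and of 30 genes of ribosome biogenesis and NAD supply 0 rose and 2 fell. By limma 0 of 18 circadian clock genes were called, 6 of them at an unadjusted p under 0.05, with a median of -0.17. In the list of VEGF, angiopoietin and adrenomedullin genes 2 of 25 rose and 2 fell.

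Part of the changes were also called between BD and sham lungs, which had no agonist. In BD against sham 30 genes rose (0.211%) and 54 fell (0.38%). Their total of 84 was 227 without BD replicate 2 and 26 without BD replicate 1, 37 without BD replicate 3 or sham replicate 1, and 49 without sham replicate 2. Of these, 21 of the 30 and 34 of the 54 also rose or fell in BD/SEW against SEW, which is 70.0% and 62.96% of them and 3.11% and 4.75% of the larger lists. The comparisons share no arrays, but both were tested in the same fit, with a common estimate of the spread for each gene. Each gene thus had the same SE in both, such as 0.20 for Rgs1 and 0.32 for Mycn. A gene with a small spread could pass more easily in both, so the calls are not independent. How much of the overlap comes from this was not tested. The heart marker means given above were higher in the sham lungs and BD replicate 2 than on the other arrays. So was the mean of 4 fat markers, at 7.22 to 8.03 in the sham lungs and 7.51 in BD replicate 2. It was 4.93 and 5.10 in BD replicates 1 and 3, 5.03 to 5.51 in the BD/SEW lungs and 5.02 to 5.11 in the SEW lungs. The part of the heart and fat transcripts in these counts was not tested either. Rgs1 was 7.34, 7.94 and 8.04 in the BD lungs, against 10, 10.09 and 10.03 in the sham lungs, a difference of -2.27 ± 0.20 that differs little from its -2.09 with the agonist. Dusp9 (-1.98 ± 0.29), Ddit4 (-1.89 ± 0.24) and Sik1 (-1.11 ± 0.13) likewise fell in BD against sham. Among rises, Mycn (2.94 ± 0.32), Irf1 (1.37 ± 0.17), Ripk2 (1.84 ± 0.29) and Tnfsf10 (2.63 ± 0.18) passed in both.

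In the NF-kappa-B list and in genes such as Selp and Hey1 the SEW lungs lay apart from the other 3 groups. The mean of the 21 NF-kappa-B genes was 10.48 to 10.70 in the BD/SEW lungs, against 9.26 to 9.77 in the SEW lungs. It was 10.34 to 10.40 in the BD lungs, against 10.23 to 10.35 in the sham lungs. Selp was 11.99, 11.52 and 11.82 in the BD lungs, against 11.44, 12.12 and 11.61 in the sham lungs. These values overlap, and Selp did not pass between them (0.05 ± 0.47, adjusted p = 0.98). Tnfaip3 was 12.23, 12.67 and 12.48 in the BD lungs, against 12.73, 12.28 and 12.52 in the sham lungs, and Hey1 was 10.07, 9.24 and 9.74 in the BD lungs, against 9.85, 9.72 and 8.56 in the sham lungs. Neither gene passed there, and all 6 values lay beyond those of every SEW lung, above them for Tnfaip3 and below them for Hey1. The mean of the 31 antiviral genes was 10.66 to 10.92 in the BD/SEW lungs, against 8.89 to 9.16 in the SEW lungs. It was 10.31 to 11 in the BD lungs, against 9.35, 10.65 and 9.58 in the sham lungs. The SEW lungs were lowest here as well, but sham replicates 1 and 3 lay nearer to them than to sham replicate 2. The median difference of these genes in BD against sham was 0.69, with 0 of 31 called by limma and 15 at an unadjusted p under 0.05.

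The interaction tested whether the brain-death difference was larger with the agonist than without it. It was larger in 121 genes (0.851%) and smaller or more negative in 14 (0.0985%). Of the 676 rises 113 passed with a larger rise, and of the 716 falls 12 passed with a larger fall. In the lists, 8 of 21 NF-kappa-B genes passed, 3 of 19 CXC chemokine genes, 3 of 24 adhesion genes and 3 of 19 mast cell and basophil genes, against 0 of 31 antiviral genes by limma (14 at an unadjusted p under 0.05). The SEW means of Cxcl11, Il6, Tfpi2 and Sele lay below the lower quartile of all genes, so the sizes and order of their differences are uncertain. Their values were the highest, Cxcl11 with 5.64 ± 0.95 (adjusted p = 0.021), Il6 with 5.35 ± 1.05, Tfpi2 with 5.32 ± 0.99 and Sele with 5.06 ± 0.68. On the other side were Hey1 with -2.61 ± 0.43 (adjusted p = 0.018), Klf2 with -1.61 ± 0.27 and Hoxa5 with -1.31 ± 0.25. The actin-binding gene Afap1l1 (-1.68 ± 0.35), the paralemmin relative Palmd (-1.27 ± 0.24) and the endothelial HSP70 relative Hspa12b (-1.21 ± 0.24) followed. In BD/SEW against SEW, Hspa12b differed by -0.90, and its other probe sets gave -0.71 and 0.27. Csf3 had opposite signs in the 2 comparisons, -1.74 ± 0.32 in BD against sham and 1.54 ± 0.32 in BD/SEW against SEW. The interaction count depends on single arrays and was 44 or 38 when BD/SEW replicate 1 or 2 was left out. Leaving out SEW replicates 1, 2 and 3 in turn gave 79, 235 and 72 genes. With BD replicate 1 left out there were 48, and with sham replicate 2 left out 69. The interaction also uses the sham lungs and BD replicate 2, and the part of their heart and fat transcripts in it was not tested.

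**Figure D5:**
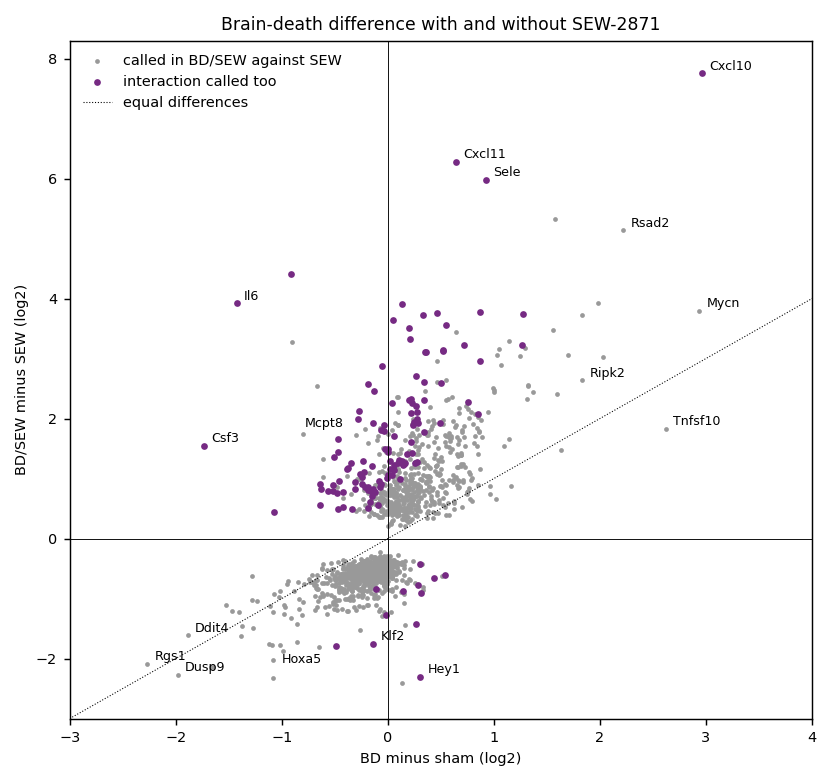
BD/SEW minus SEW against BD minus sham (log2) for the 1392 genes called in BD/SEW against SEW, with those also called in the interaction in purple and a dotted line of equal differences. Cxcl11, Sele and Il6 lie far above the line, Hey1, Klf2 and Hoxa5 below it, and Rgs1, Dusp9, Ddit4 and Ripk2 lie near it.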

How the data were processed

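RNA of 12 rat lungs (6 ug total RNA each, per the labels' protocols) was measured on Affymetrix arrays. The authors deposited log2 values with 2 decimals, and the submitters' processing notes name RMA, MAS5 and affy without a version or role. Annotation gave 1 gene symbol to 20826 of 31042 probe sets, several to 436 and none to 9780, and 20758 of the first matched RefSeq names. The probe set with the highest mean stood for each gene. limma 3.58.1 in R 4.3.3 fitted a mean per group over the 12 arrays, with a mean trend and Benjamini-Hochberg adjustment over 14217 genes. All p-values are two-sided, and since the labels do not describe the origin of each lung further, they measure the spread between these samples, which may be technical. The fit was tested on simulated data. Named genes are up to 30 called rises and 30 called falls with separate groups and a higher mean above the 25th percentile, up to 10 called in the interaction in each direction, S1pr1 and any list member. The genes and lists were chosen with earlier results of these data known. Alternatives changed the arrays, gene rule, scaling, variance model, threshold and block.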

Additional observations from a re-analysis of the deposited data

Results flagged for a closer look

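The brain-death difference differed between treated and untreated lungs in 56 of the genes named above, by limma's test of (BD/SEW minus SEW) minus (BD minus sham) at an adjusted p under 0.05 over all 14217 genes. Over all genes 135 passed this test (0.95%). Some genes were named because they passed it, so the count of 56 does not measure how common such differences are. All of the 56 are tested differences in log2 units on 12 arrays, with 3 lungs in each of the 4 groups, and a positive value means that the difference was higher with the agonist. The sham lungs and BD replicate 2, which carry heart and fat transcripts, enter each of these differences, and the part of those transcripts was not tested. No sample was examined for standing apart within its group in this way, since the groups hold 3 lungs each.

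Chemokines and cytokines took large positive values: Cxcl11 5.64, Il6 5.35, Cxcl10 4.79, Ebi3 3.78, Csf3 3.28, Cxcl1 2.75 and Tnf 2.47. Inhba had 2.52, and the receptors and inhibitors Ccrl2, Cish, Cd40, Il10ra and Stat3, the factor downstream, had 1.95, 1.65, 1.52, 1.10 and 0.77. Among NF-kappa-B and related regulators the values were 3.30 for Birc3, 3.0 for Zc3h12a, 2.93 for Tnfaip3, 2.11 for Nfkbiz, 2.08 for Bcl3 and 2.02 for Relb. Nfkb2, Tnip1 and Nfkb1 had 1.87, 1.49 and 1.01, and Cflar, Irak3 and Zfp36 had 2.09, 1.93 and 0.95. Tnfaip2 had 2.62 and Batf 3.29.

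Of the vascular genes, Tfpi2 had 5.32, Sele 5.06, Selp 3.60, F5 1.65 and Vcam1 1.43. Ptges had 2.77 and Gch1 1.97. Of the leukocyte genes, Camp had 3.40, Mmp9 3.11, Mcpt8 2.40 and Hdc 1.55. Further positive values were 2.60 for Rtp3, 2.90 for Rnd1, 2.75 for Cks2, 2.45 for Slc2a3, 2.06 for Slc7a11, 1.92 for Mki67, 1.86 for Rgs16 and 1.55 for Hk1. Negative values were -2.61 for Hey1, -1.68 for Afap1l1, -1.61 for Klf2, -1.31 for Hoxa5, -1.27 for Palmd, -1.21 for Hspa12b and -1.15 for Hoxb6. Klf10 had -1.09, Sh2d3c -1.02 and Zbtb8a -1.06.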

How the results depend on the processing

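Of the 194 named genes that were called, 156 were also called under each of the 17 alternatives that kept them in the table, and none of the 245 named genes changed sign in its call. The count of called genes, 1392, lay between 1155 (the 6 compared arrays only) and 1558 (every probe set) under the other gene rules, scalings and variance settings, apart from array weights, which gave 2506 genes with 1117 rises and 1389 falls. A threshold of 0.01 left 629 (384 rises, 245 falls), and a minimum of 2-fold 375 (299 rises, 76 falls). Leaving out each compared array in turn gave 790 to 1360 genes, with 438 to 645 rises and 339 to 721 falls. The 135 genes of the interaction became 464 under array weights and 82 when every probe set was fitted, and ranged from 38 to 235 with an array left out. The 84 genes of BD against sham became 383 under array weights and 51 when every probe set was fitted, and ranged from 26 to 227 with an array left out. Centring each array on its median changed the split of rises and falls to 706 and 602. With the replicate number as a block, 725 genes rose and 779 fell (1504 in all), the interaction held 146 and BD against sham 69. The deviations of same-numbered BD/SEW and SEW lungs from their group means had correlations of 0.0886, -0.0128 and 0.1981. The labels describe no pairing, and correlations from 3 lungs a group cannot exclude it. Without the sham arrays and BD replicate 2, which carry heart and fat transcripts, 1369 genes were called (671 rises, 698 falls). With 3 arrays a group, an exact permutation test of 1 gene could not go below p = 0.1, so precision is limited by the number of arrays. The cause of the differences between settings was not tested.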
